A study of Mus musculus with 64 samples.

Results

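The clustered protocadherins are the genes of the alpha, beta and gamma protocadherin clusters, taken here as every gene symbol made of Pcdha, Pcdhb or Pcdhg, an optional letter a, b or c, and a number. The rule found 58 of the 23420 genes in the count files: 14 in the alpha cluster, 22 in the beta cluster and 22 in the gamma cluster. Poly(A) RNA was sequenced from striatum punches of 16 F2 mice from a cross of C57BL/6NJ (B6NJ) and C57BL/6J (B6J). By the labels, 8 mice were N/N, homozygous for a mutant B6NJ allele and described as binge-prone (5 females and 3 males). The other 8 were J/J, homozygous for the wild-type B6J allele and described as binge-resistant (5 females and 3 males). All mice were 69 to 100 days old, and tissue was taken on day 24, right after 5 min on the elevated plus maze, so every group shared the maze exposure. The labels do not name the locus, and they do not give the alleles at the protocadherin clusters. The cross is known for a coding difference in Cyfip2, a subunit of the WAVE actin complex. The rest of the genome was mixed in an F2, and the series text gives 4 females and 4 males per genotype where the sample labels give 5 and 3.

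Clustered protocadherins are adhesion proteins of the cadherin family that sit on neuronal surfaces and bind like molecules on facing membranes. In the alpha and gamma clusters each variable exon has its own promoter and encodes the outer part and the membrane span, and it is spliced to constant exons that encode a tail shared within the cluster. Beta genes have a single coding exon and no constant tail. Each neuron is known to switch on a few of the alpha, beta and gamma A or B promoters, through CTCF and cohesin, while C-type genes are used more widely, and the resulting surface code lets branches of the same neuron recognise and avoid each other.

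The members lie on the plus strand of chromosome 18 (build GRCm38, the same assembly as mm10). The alpha cluster spans 18:36930285 to 37188897 (259 kb), the beta cluster 18:37264998 to 37521419 (256 kb) and the gamma cluster 18:37661775 to 37841873 (180 kb). Each alpha gene carries 2860 bases of constant exon that all alpha genes share. Gamma genes share 2119 bases, or 375 bases in the annotated model of Pcdhgb8, and beta genes share none. If the authors' counting used gene models like these, a read in a shared exon was ambiguous between genes and counted for none. The counting annotation and overlap mode are not given in the labels, so this is an assumption taken from the reference annotation. On it, levels are given per kb of unshared exon (2.35 to 3.03 kb in alpha, 2.34 to 5.27 kb in beta and 2.42 to 2.96 kb in gamma genes). Like sequence can also cost reads in the unshared exons. Windows of 50 bases that occur in no other gene numbered 77.0 to 100% of the unshared bases in alpha genes (median 85.4%) and 82.4 to 99.9% in gamma genes (median 99.1%). Pcdha7 was lowest, while Pcdhac1, Pcdhac2 and Pcdhgc3 were at 99.9 to 100%. Of all windows of a beta gene, 88.0 to 100% occur in no other gene.

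Each mouse had 27405386 to 51334152 reads in genes, of which 12260 to 25235 fell in the 58 members. Levels are given as CPM, each count relative to its mouse's total gene reads after TMM scaling. This depth limits mainly the low alpha genes and Pcdhb1, the tested member with the fewest reads (186 over all mice). Markers of medium spiny neurons, the main striatal neurons, were abundant: 13 of 14 listed genes were tested, all but Drd1. The summed level of the list was 5193 to 9178 CPM in N/N mice and 4004 to 7822 CPM in J/J mice. Cortical glutamatergic neuron markers were also present, at 1412 to 2583 CPM in N/N mice and 1927 to 2705 CPM in J/J mice. The largest parts of that sum were Nrgn (mean 941 CPM in N/N and 953 CPM in J/J mice) and Slc17a7 (698 and 848 CPM). In bulk tissue, fewer cells of a type and less RNA per cell cannot be told apart.

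The gamma cluster carried most of the protocadherin reads. Its summed level was 332 ± 40.9 CPM over the 16 mice (SD), or 62.5% of the total of all members, against 153 ± 11.6 CPM (28.8%) for the beta cluster and 46.5 ± 5.90 CPM (8.75%) for the alpha cluster. Per gene and kb of unshared exon the order was the same, at 5.77 CPM for gamma, 1.98 CPM for beta and 1.22 CPM for alpha members. The 5 C-type genes held 33.3% of the total. If the shared exons were counted too, which the files do not settle, the length would be all exons: the gamma mean was then 3.20 and the alpha mean 0.594 CPM per kb, and the order of the clusters did not change.

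**Figure D1:**
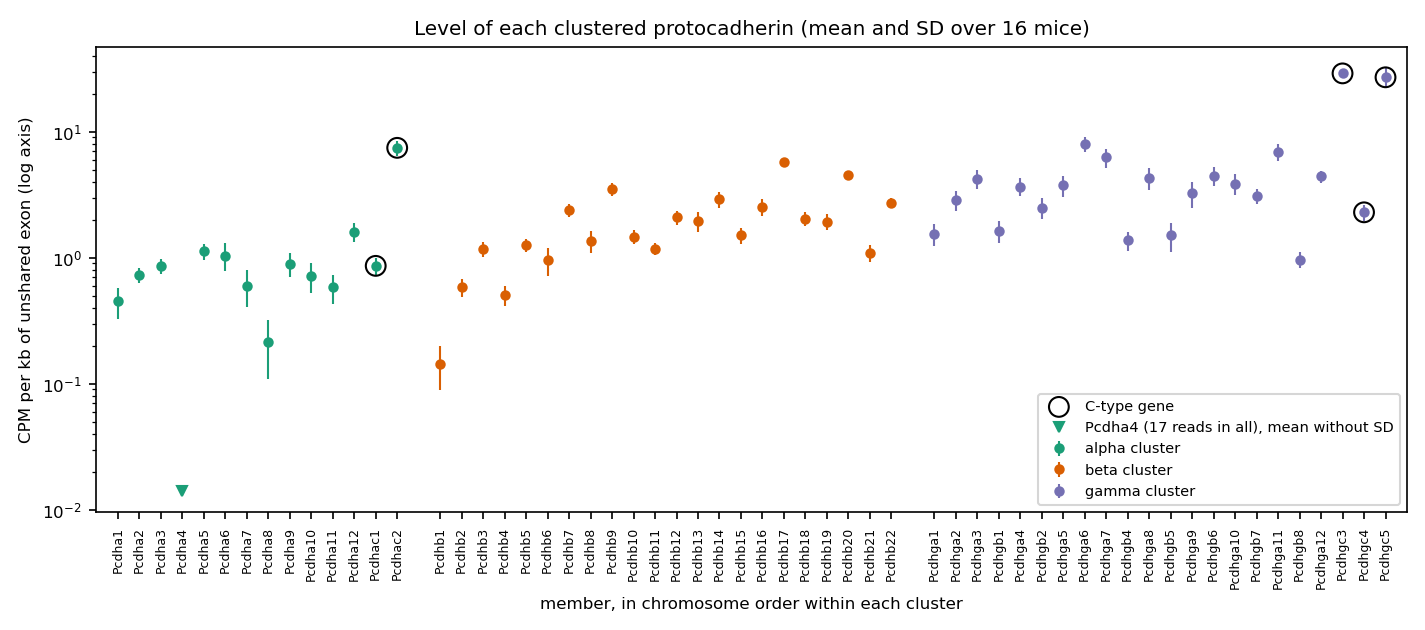
Level of each member in CPM per kb of unshared exon (log axis) in chromosome order within its cluster. Points are means and bars SD over 16 mice, open circles mark the 5 C-type genes, and Pcdha4 is drawn as a triangle without SD. Pcdhgc3 and Pcdhgc5 stand highest at 29.0 and 27.0, and beta levels tend to be higher toward the far end of their cluster.

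The C-type genes spanned a wide range. Pcdhgc3, which in mouse cortical neurons supports dendrite branching through Axin1, was the highest member at 29.0 ± 2.48 CPM per kb (SD, n = 16), and Pcdhgc5, known to bind a GABA-A receptor subunit at synapses, followed at 27.0 ± 4.92. Those levels overlapped within their SD. Pcdhac2, needed in mice for the even spacing of serotonin axons, reached 7.44 ± 0.983 CPM per kb and was the fourth highest member. Pcdhgc4, needed in mice for the survival of interneurons, was at 2.29 ± 0.333, and Pcdhac1, the other alpha C-type gene, was at 0.861 ± 0.136, within the range of the ordinary alpha genes.

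In the alpha cluster Pcdhac2 alone made up 48.5% of the reads. The 11 tested alpha genes of the ordinary kind had levels of 0.214 to 1.60 CPM per kb, with a median of 0.726. Pcdha12 was the highest of them at 1.60 ± 0.275 and Pcdha5 came next at 1.12 ± 0.154, while Pcdha8 was the lowest tested member of the cluster at 0.214 ± 0.105. Pcdha8 also varied most between mice, from 4 to 39 reads.

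Pcdha4 was nearly absent from the counts, with 17 reads over all mice, at most 4 in a mouse and none in 6 mice. It was the only member that did not pass the filter on low counts, and no fold change is given for it. The files also list a gene called Pcdha4-g, with 0 reads in every mouse. RefSeq keeps that name as an older name of Gm37013, a model on the same strand at 18:36952648 to 37841873. It begins just ahead of the start of Pcdha4 itself (18:36952689) and ends where the gamma cluster ends. Whether the counting against that model removed reads of Pcdha4 was not tested.

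In the beta cluster levels ran from 0.144 to 5.76 CPM per kb. Pcdhb17 (5.76 ± 0.422), Pcdhb20 (4.53 ± 0.375) and Pcdhb9 (3.52 ± 0.412) were the highest, and Pcdhb1 (0.144 ± 0.0549) and Pcdhb4 (0.509 ± 0.0923) the lowest. As a description across 22 genes, which are not independent, Spearman's rho between order and level was 0.63 in the beta cluster. It was 0.14 over the 11 ordinary alpha genes and 0.20 over the 19 gamma A and B genes. Beta lengths are RefSeq extents, and for some genes the GENCODE transcripts used for the windows hold more sequence. Pcdhb17 has an extent of 3270 bases but 4611 windows of 50 bases, and Pcdhb14 has 3438 bases but 8646 windows. Beta levels and their order on such longer models were not computed.

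In the gamma cluster the A-type genes had a median level of 4.04 CPM per kb (1.55 to 8.05, 12 genes) and the B-type genes one of 1.62 (0.966 to 4.48, 7 genes). Pcdhga6 was the highest outside the C-type genes at 8.05 ± 1.10. Pcdhgb8 (0.966 ± 0.134) and Pcdhgb4 (1.37 ± 0.232) were the lowest. When length was counted only over windows found in no other gene, the 7 highest members kept their order. For beta genes this length was the RefSeq extent times the share of such windows, not the number of windows itself. The choice was made after seeing the data. With all exons as length, Pcdhgc3 and Pcdhgc5 stayed highest but the order below them changed. Pcdhb17 then ranked 3 in place of 7, Pcdhb20 4 in place of 8 and Pcdhac2 7 in place of 4.

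Genotype left the cluster sums overlapping. The alpha sum was 44.8 ± 6.77 CPM in N/N mice and 48.1 ± 4.77 CPM in J/J mice (SD, n = 8 each), a difference of -0.11 on the log2 scale. The beta sum was 152 ± 11.7 CPM in N/N mice and 154 ± 12.2 CPM in J/J mice, a difference of -0.02. The gamma sum was 345 ± 48.8 CPM in N/N mice and 318 ± 28.2 CPM in J/J mice, a difference of 0.11. Each difference was smaller than the log2 SD among the N/N mice (0.23 for alpha, 0.12 for beta and 0.20 for gamma), and no test was run on the sums because their members were chosen with earlier results known.

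N/N female mouse 13 had the lowest sum of all 3 clusters and the lowest value of 24 of the 57 tested members. N/N female mouse 2 had the highest gamma sum and the highest value of 21 members. Without mouse 13 the alpha difference was -0.05, the beta difference 0.01 and the gamma difference 0.15 on the log2 scale, and without mouse 2 the gamma difference was 0.07. Without J/J male mouse 8, which had the highest alpha sum at 58.7 CPM, the alpha difference was -0.07.

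**Figure D2:**
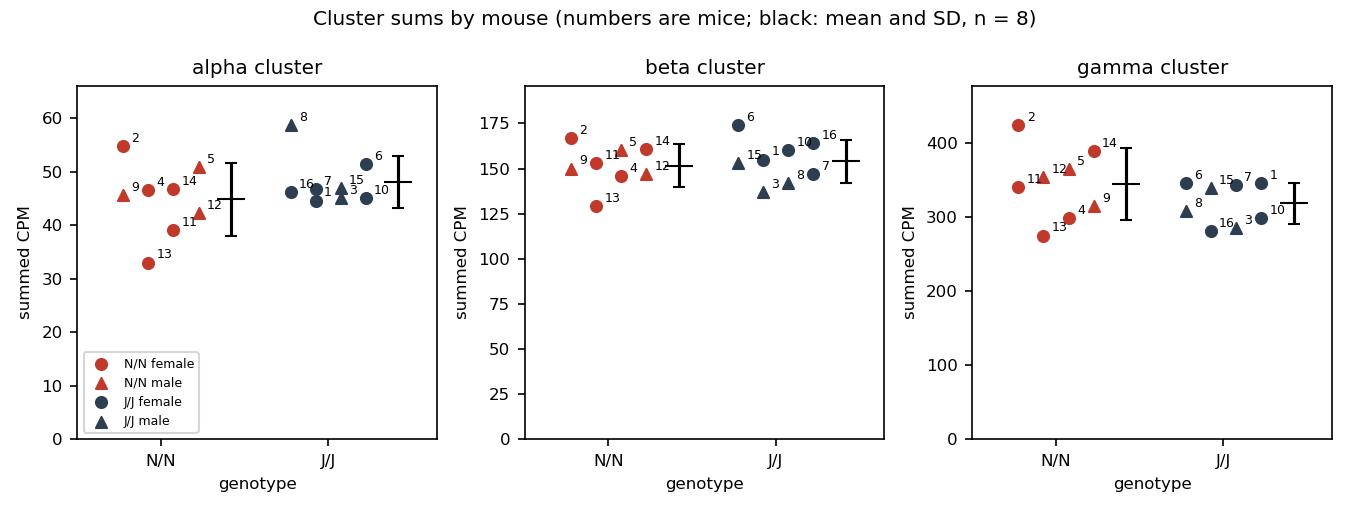
Summed CPM of the alpha, beta and gamma clusters in N/N mice (left) and J/J mice (right), with females as circles, males as triangles and mouse numbers beside them. Black marks are means with SD (n = 8 each). The genotypes overlap in every panel, and mouse 13 is the lowest N/N mouse in each.

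No member passed the genotype test across all genes. With edgeR's quasi-likelihood test and Benjamini-Hochberg adjustment over 16113 genes, 0 of 57 tested members had an adjusted p under 0.05 (0% of all genes did), and the members' adjusted p ran from 0.712 to 0.995. At an unadjusted p under 0.05 there were 7 of 57 members, against 6.80% of all genes. Of these, 2 were higher in N/N (3.42% of all genes) and 5 lower (3.38% of all genes). DESeq2 also called 0 members after adjustment and gave 6 at an unadjusted p under 0.05, and limma-voom gave 0 and 7.

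The sign of the fold change differed by cluster. A log2 fold change above 0, that is N/N above J/J, was found for 30 of 57 members, against 50.9% of all genes. It was found for 1 of 13 alpha members (median log2 fold change -0.07), 10 of 22 beta members (-0.01) and 19 of 22 gamma members (0.15), while the median of all genes was 0.0017. Members of a cluster varied together over mice, so these counts do not rest on independent genes, and they were not tested against other genes. With the cortical marker score in the model the counts were 3 of 13, 5 of 22 and 15 of 22, with medians of -0.05, -0.07 and 0.05. With the oligodendrocyte score in it they were 1, 4 and 18, with medians of -0.05, -0.04 and 0.09.

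**Figure D3:**
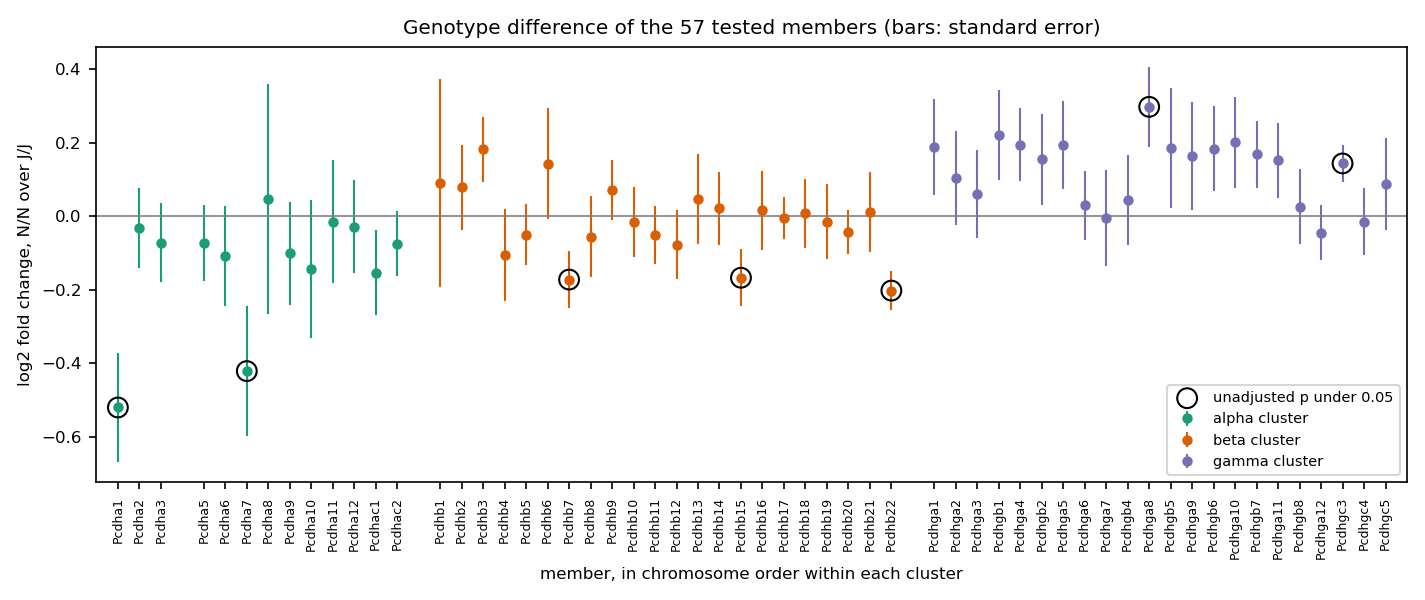
N/N over J/J as a log2 fold change for the 57 tested members in chromosome order, with standard errors as bars. Open circles mark the 7 members with an unadjusted p under 0.05. Values above 0 make up 1 of 13 alpha, 10 of 22 beta and 19 of 22 gamma members.

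The lower members in N/N were led by Pcdhb22 and Pcdha1. Pcdhb22, a beta adhesion protein and the last gene of its cluster, had 7.11, 7.90 and 8.21 CPM as lowest, median and highest value in N/N mice, against 8.18, 9.08 and 9.93 CPM in J/J mice. The ranges touched only at 8.18 to 8.21 CPM, and 0 of 8 N/N mice lay above the J/J median. Its log2 fold change was -0.20 ± 0.05 (SE), with an unadjusted p of 0.00148 and an adjusted p of 0.712 by edgeR.

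Pcdha1, the first gene of the alpha cluster, had 0.534, 0.895 and 1.16 CPM as lowest, median and highest value in N/N mice, against 0.946, 1.34 and 1.64 CPM in J/J mice. All 8 N/N mice were below the J/J median, and the ranges overlapped between 0.946 and 1.16 CPM. The log2 fold change was -0.52 ± 0.15 (SE), with an unadjusted p of 0.00256 and an adjusted p of 0.712 by edgeR. It rested on 15 to 57 reads per mouse.

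Pcdha7 was the second alpha gene on this side, with 0.809, 1.26 and 1.66 CPM in N/N mice against 1.12, 1.64 and 2.89 CPM in J/J mice (lowest, median and highest), a log2 fold change of -0.42 ± 0.18 (SE). Its highest value belonged to J/J male mouse 8. The beta genes Pcdhb7 and Pcdhb15 had log2 fold changes of -0.17 ± 0.08 each. Pcdhb7 had 0 of 8 N/N mice above the J/J median and Pcdhb15 had 1 of 8. Pcdhac1, next by p in the alpha cluster, had a log2 fold change of -0.15 ± 0.12. The adjusted p of these 4 genes was 0.712 for all but Pcdhac1, where edgeR gave 0.757.

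The higher members were Pcdhgc3 and Pcdhga8. Pcdhgc3 had 68.6, 79.1 and 86.6 CPM in N/N mice against 63.0, 71.4 and 75.3 CPM in J/J mice (lowest, median and highest), with 6 of 8 N/N mice above the J/J median and overlapping ranges. Its log2 fold change was 0.14 ± 0.05 (SE), with an unadjusted p of 0.0108 and an adjusted p of 0.712 by edgeR. Pcdhga8, a gamma A gene, had 8.33 to 16.3 CPM in N/N mice against 7.83 to 12.6 CPM in J/J mice, with overlapping ranges. Its log2 fold change was 0.30 ± 0.11 (adjusted p 0.712, edgeR), with 7 of 8 N/N mice above the J/J median. Pcdhga4, next by p in the gamma cluster, had a log2 fold change of 0.19 ± 0.10.

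The other C-type genes differed less than their spread. Pcdhgc5 ranged over 54.8, 68.5 and 103 CPM in N/N mice against 58.1, 72.7 and 75.9 CPM in J/J mice (lowest, median and highest), so its median was lower and its highest value higher in N/N. Its log2 fold change was 0.09 ± 0.12. Pcdhac2 had a log2 fold change of -0.07 ± 0.09 and Pcdhgc4 one of -0.01 ± 0.09. Among the most abundant members of the beta cluster, Pcdhb17 was at -0.01 ± 0.06, Pcdhb20 at -0.04 ± 0.06 and Pcdhb9 at 0.07 ± 0.08. Pcdhga6, the most abundant gamma A gene, was at 0.03 ± 0.09.

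The remaining named members had genotype differences smaller than 2 of their SE. In the alpha cluster these were Pcdha5 at -0.07 ± 0.10, Pcdha6 at -0.11 ± 0.14, Pcdha8 at 0.05 ± 0.31 and Pcdha12 at -0.03 ± 0.13 on the log2 scale. In the beta cluster they were Pcdhb1 at 0.09 ± 0.28, Pcdhb4 at -0.10 ± 0.12, Pcdhb8 at -0.06 ± 0.11, Pcdhb13 at 0.05 ± 0.12 and Pcdhb16 at 0.02 ± 0.11, and in the gamma cluster Pcdhgb4 at 0.04 ± 0.12, Pcdhgb7 at 0.17 ± 0.09 and Pcdhgb8 at 0.03 ± 0.10.

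Within females, 0 of 57 members had an adjusted p under 0.05 by edgeR (0% of all genes), and 3 had an unadjusted p under 0.05, all lower in N/N, against 4.41% of all genes. Limma-voom gave 0 and 3. The 5 N/N females had 7.11 to 8.00 CPM of Pcdhb22 and the 5 J/J females 8.38 to 9.93 CPM, with no overlap, and the log2 fold change was -0.26 ± 0.07. Pcdha1 had 0.534, 0.823, 0.998, 1.05 and 1.16 CPM in N/N females against 1.17, 1.34, 1.34, 1.39 and 1.64 CPM in J/J females, again without overlap, and its log2 fold change was -0.57 ± 0.19. The adjusted p was 0.96 for both genes by edgeR. They were named for their small p, and the share of all genes without overlap in females was not counted. The count of 3 was 6 without J/J female 7 and 5 without N/N female 13.

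Within males, 0 of 57 members had an adjusted p under 0.05 by edgeR (0% of all genes), and 3 had an unadjusted p under 0.05, all higher in N/N, against 11.3% of all genes. Limma-voom gave 0 and 2. Pcdhgb7, a gamma B gene, had 8.90, 9.04 and 9.27 CPM in N/N males and 6.63, 7.19 and 7.46 CPM in J/J males. Pcdhb16 had 12.8, 15.4 and 15.7 CPM in N/N males and 10.8, 11.7 and 11.9 CPM in J/J males. Neither overlapped between genotypes, and the log2 fold changes were 0.36 ± 0.14 and 0.35 ± 0.14, with adjusted p of 0.402 and 0.409 by edgeR. Lack of overlap in males was not particular to these genes. Pcdhb1, Pcdhb6, Pcdhga8, Pcdhga9, Pcdhga10, Pcdhga11, Pcdhgb2, Pcdhgb5 and Pcdhgb6 also had every N/N male above every J/J male. Pcdhgb7 and Pcdhb16 were named for their small p, and the share of all genes without overlap in males was not counted. The third of the 3 members by unadjusted p was Pcdhb6 at 0.50 ± 0.23. The count depended on single mice: it was 7 without N/N female 2, 5 without N/N female 4, 5 without N/N male 12, 8 without N/N female 13, 6 without J/J male 15, 5 without J/J female 16 and 1 without J/J male 3.

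The genotype by sex interaction, which asks whether the genotype difference was unequal in the sexes, gave 0 of 57 members at an adjusted p under 0.05 by edgeR (0% of all genes) and 3 at an unadjusted p under 0.05, against 6.94% of all genes. Limma-voom gave 0 and 2. All 3 were beta genes with the larger value in males. For Pcdhb16 the N/N females had 12.6 ± 1.73 CPM and the J/J females 14.4 ± 2.34 CPM (SD, n = 5 each), in contrast to 14.6 ± 1.61 CPM in N/N males and 11.5 ± 0.559 CPM in J/J males (SD, n = 3 each). The interaction, the female minus the male log2 fold change, was -0.53 ± 0.18 on the log2 scale, with an adjusted p of 0.692 by edgeR. Pcdhb1 had an interaction of -1.17 ± 0.55, on 3 to 18 reads per mouse, and the third gene was Pcdhb21 at -0.44 ± 0.21. The count was 7 without N/N female 2 and 5 without N/N female 11, and it was 1 without any of J/J females 1, 6, 10 and 16, N/N females 4 and 13 and N/N males 5 and 9.

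Between the sexes, 0 of 57 members had an adjusted p under 0.05 by edgeR, against 0.0559% of all genes, and 5 had an unadjusted p under 0.05, against 4.95% of all genes. Limma-voom gave 0 and 5. The log2 fold change of females over males was above 0 for 5 of 13 alpha (median -0.02), 19 of 22 beta (0.10) and 14 of 22 gamma members (0.03), against 50.8% of all genes (median 0.0015). Here too the members of a cluster are not independent, and the counts were not tested. Pcdhb8 had a log2 fold change of 0.41 ± 0.12 and Pcdhb15 one of 0.27 ± 0.08, with females above the male median in 9 of 10 and 10 of 10 mice, and both had an adjusted p of 0.915 by edgeR. The others were Pcdhb6 at 0.36 ± 0.16, Pcdha6 at -0.34 ± 0.14 and Pcdhgc4 at -0.22 ± 0.09. The count was 12 without N/N female 13, 8 without N/N female 4 and 3 without J/J female 10.

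Gamma A and B genes varied together between mice more than the others did, as a description over 16 shared libraries. The median Pearson r over their 171 pairs was 0.68, and 74.9% of pairs were above 0.5. The median was 0.26 among ordinary alpha genes (55 pairs), 0.29 among beta genes (231 pairs) and 0.40 among C-type genes (10 pairs). Between classes the medians were 0.22 to 0.36. The spread that counting alone gives had a median of 11.9% among alpha genes, 7.54% among beta genes and 5.61% among gamma genes. The whole spread over mice had medians of 21.3%, 14.2% and 17.4%. The part of counting spread in these r values was not tested.

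Some genes outside the gamma A and B set followed it. Pcdhb14 had an r of 0.85 with the mean log2 CPM of the gamma A and B genes, Pcdhgc5 one of 0.80, Pcdhb13 one of 0.70 and Pcdha10 one of 0.67. Pcdha7 and Pcdhb22 had -0.24 each, and within the gamma set itself Pcdhgb8 had 0.24. The neighbours Pcdhb16 to Pcdhb21 formed a second group in the plot of pairs, with a median r of 0.71 over 15 pairs (0.30 to 0.81). These genes were picked after their values were seen.

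**Figure D4:**
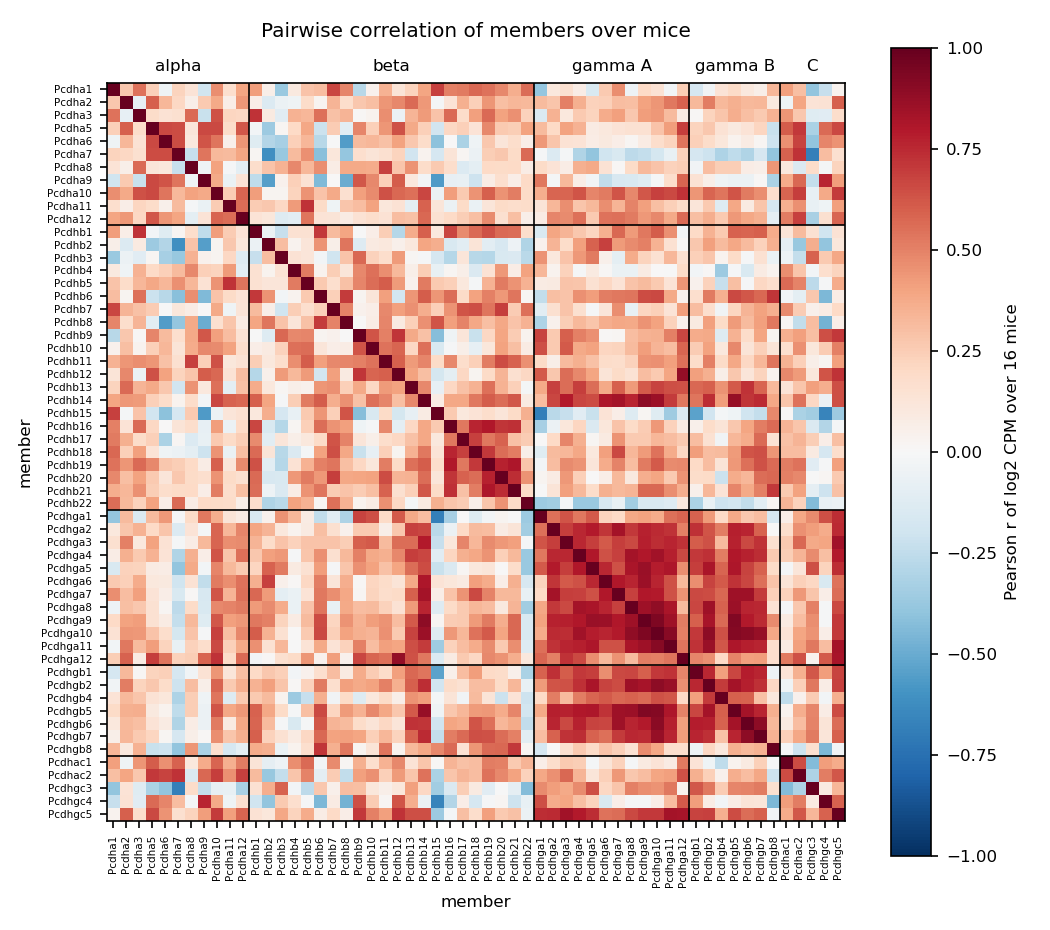
Pearson r of log2 CPM over 16 mice for each pair of the 57 tested members, grouped as ordinary alpha, beta, gamma A, gamma B and C-type genes and in chromosome order within a group. Red is positive and blue negative. The gamma A and B block has a median of 0.68, and Pcdhb14 and Pcdhgc5 run red along it.

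The cluster sums themselves were related less firmly. In all relations the sums were taken as log2 CPM. Over 16 mice the beta and gamma sums had a Pearson r of 0.57 (permutation p 0.0224, adjusted over 3 relations 0.0594) and a Spearman rho of 0.52 (adjusted permutation p 0.118). Alpha and beta had an r of 0.52 (adjusted permutation p 0.0594) and a rho of 0.38, and alpha and gamma an r of 0.41 (adjusted permutation p 0.112) and a rho of 0.42. Without the 2 mice farthest from the median of the first-named sum the r values were 0.47, 0.54 and 0.42. Within N/N mice they were 0.91, 0.88 and 0.74, and within J/J mice 0.24, -0.07 and 0.09 (8 mice each). The difference between genotypes was not tested. Within females they were 0.51, 0.82 and 0.61 (10 mice), and within males 0.86, 0.03 and -0.12 (6 mice).

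Without N/N female mouse 13, r was 0.45 for beta and gamma, 0.20 for alpha and beta and 0.21 for alpha and gamma. Without J/J male mouse 8 it was 0.55, 0.74 and 0.56, with adjusted permutation p of 0.0332, 0.00606 and 0.0332. Without N/N female mouse 11 the adjusted permutation p was 0.049 for beta with gamma and for alpha with beta. Without J/J female 10 or 16 it was 0.0367 and 0.00636 for beta with gamma.

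The microglia and astrocyte marker scores ran opposite to the alpha sum. Over 24 relations of 8 marker lists with the 3 sums, the alpha sum had an r of -0.81 with the microglia score (adjusted permutation p 0.0096; rho -0.65, adjusted permutation p 0.0947) and -0.74 with the astrocyte score (adjusted permutation p 0.0336; rho -0.57, adjusted permutation p 0.135). No other relation had an adjusted p under 0.05. The choroid plexus score had an r of -0.56 with the alpha sum (adjusted permutation p 0.171; rho -0.69, adjusted permutation p 0.0947), and the oligodendrocyte score one of -0.13 (adjusted permutation p 0.822; rho -0.16). Without the 2 mice farthest from the median score both relations were weaker, with r of -0.48 for microglia and -0.43 for astrocytes. Without mouse 13 they were -0.64 (adjusted permutation p 0.0849) and -0.47 (adjusted permutation p 0.21). Without mouse 11 they were -0.78 and -0.74 (adjusted permutation p 0.0684 and 0.0706), and the astrocyte relation also missed the threshold without N/N male 5, N/N male 12 or J/J male 8 (0.0557, 0.0767 and 0.0736 by permutation). Within N/N mice r was -0.80 for microglia and -0.83 for astrocytes, and within J/J mice -0.73 and -0.25. Within females it was -0.85 and -0.74, and within males -0.65 and -0.66.

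**Figure D5:**
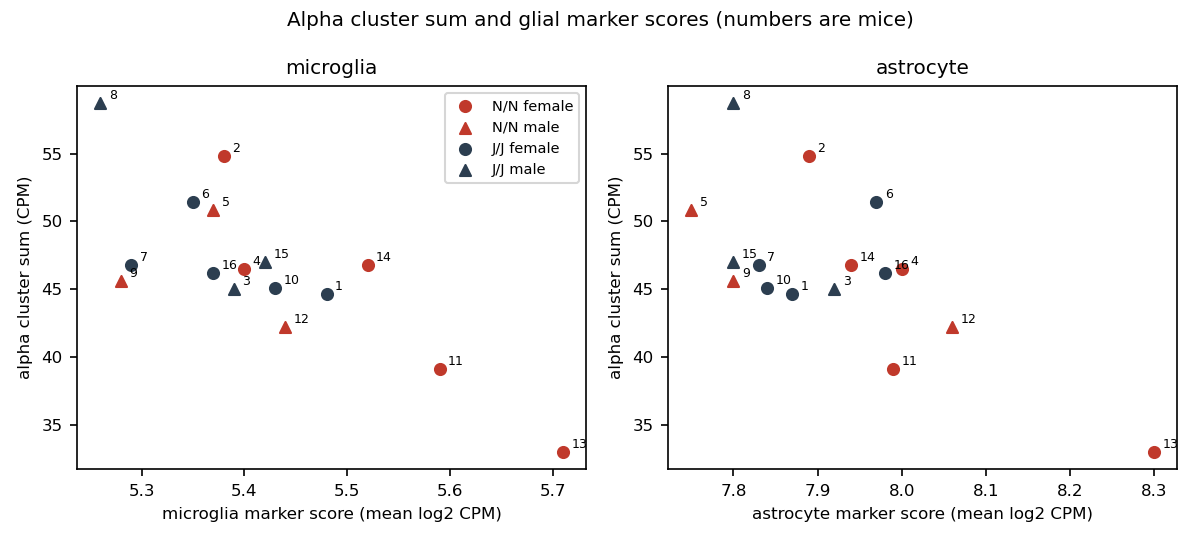
Alpha cluster sum in CPM against the microglia score (left panel) and the astrocyte score (right panel), each the mean log2 CPM of 8 markers. Every point is a mouse with its number, N/N in red and J/J in dark blue. Mouse 13 lies at the low end of the sum and the high end of both scores.

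The gamma sum had its highest r with the medium spiny neuron score, at 0.61 (permutation p 0.0127, adjusted 0.101; rho 0.57), 0.62 within N/N and 0.49 within J/J mice. Beside the genotype values stand those of the markers: 13 of 13 medium spiny neuron markers had a log2 fold change above 0 in N/N against J/J (median 0.22) and 0 of 11 cortical markers did (median -0.28). For glia it was 8 of 8 oligodendrocyte (0.18), 8 of 8 astrocyte (0.10) and 8 of 8 microglia markers (0.09). It was 6 of 8 interneuron (0.14), 7 of 8 endothelial and 4 of 4 tested choroid plexus markers (0.39). None passed the adjusted test, and no listed marker found in the count files was at 0 in every mouse. Drd1 of the medium spiny neuron list and Folr1 and Otx2 of the choroid plexus list were not among the tested genes. The summed level of the microglia list was 432 to 567 CPM in N/N mice and 419 to 504 CPM in J/J mice, and that of the astrocyte list 5958 to 7883 CPM in N/N mice and 5681 to 6714 CPM in J/J mice. The part of cell makeup in the opposite signs of the alpha and gamma clusters was not tested beyond the fits with a cortical or oligodendrocyte score given above.

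Genes that act on or with the clusters gave little difference. Of 10 delta protocadherins, adhesion genes outside the clusters, 5 had a log2 fold change above 0 and 5 below, between -0.10 and 0.07, and the smallest p belonged to Pcdh10 at -0.05 ± 0.05. Of 17 tested factors of promoter choice and insulation, such as Ctcf and the cohesin subunits, 10 were above 0 and 7 below, and the smallest p was that of Smchd1, a chromatin repressor, at 0.06 ± 0.04. None of these 27 genes had even an unadjusted p under 0.05, against 6.80% of all genes.

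Among 13 tested intracellular partners 9 were above 0, and Rhoa, a GTPase that controls actin, had 157 ± 4.70 CPM in N/N mice and 147 ± 3.76 CPM in J/J mice (SD, n = 8 each; log2 fold change 0.10 ± 0.03, adjusted p 0.712 by edgeR). Of 11 subunits of the WAVE complex, which binds the alpha constant tail, 6 were above 0. Nckap1l, the subunit of blood-lineage cells, was the only one with an unadjusted p under 0.05, at 0.12 ± 0.05. Of the 8 genes for ADAM10 and gamma-secretase, which cleave protocadherins, 3 were above 0, and Aph1c was at -0.16 ± 0.06. None of the 59 tested genes in these 5 lists passed the adjusted test, where the lowest adjusted p was 0.712 by edgeR.

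The members were more variable between mice than most genes. Their biological coefficient of variation, edgeR's estimate of spread beyond counting, had a median of 13.4% (6.55 to 35.8%) against 8.86% for all genes tested. It was 16.0% in the alpha, 11.7% in the beta and 15.6% in the gamma cluster. The comparison was not matched on level. This estimate is the spread left after the genotype and sex terms of the fit. By it the least variable member was Pcdhb22, and the most variable Pcdha8. Pcdhb22 was not the steadiest over all 16 mice: its plain coefficient of variation was 9.54%, against 7.32% for Pcdhb17.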

How the data were processed

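Striatum RNA of 16 mice was sequenced as 50 bp single-end reads from stranded mRNA libraries in 4 runs, per the labels' protocols. The deposited values are raw read counts per gene, 1 table for each mouse and run, which the authors made with FastQC 0.11.3, TopHat2 2.1.0 on mm10 and HTSeq 0.6.1p1, per the submitters' processing notes. The same field lists edgeR 3.8.6 and limma 3.22.7. No source used here gives the annotation release, the strand setting or the overlap mode, so overlapping and antisense genes cannot be told apart with certainty, and near-identical family members are uncertain where reads align to several. The 5 summary categories, among them reads outside genes (19.95%), reads aligned to several places (21.84%) and ambiguous reads (0.78%), stayed out of library sizes and tests.

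The 4 runs of a mouse, the replicate, were added up, and mice were grouped by the genotype and sex labels. Genes were tested with edgeR 4.0.16 (R 4.3.3), TMM factors (0.970 to 1.025), filterByExpr (minimum count 10), robust quasi-likelihood F tests with sex or genotype as the other term, or 4 groups, and Benjamini-Hochberg adjustment. The SE of a fold change is its absolute log2 value divided by the square root of F. DESeq2 1.42.0 and limma-voom 3.58.1 were alternatives. The scripts were tested on simulated data. Exon lengths and coordinates are those of RefSeq and GENCODE M21 on GRCm38, and beta genes took their RefSeq extent. A marker score is the mean log2 CPM (prior count 2) of a list's tested genes. Relations used log2 of the cluster sums and 100000 permutations, two-sided. Named members were the C-type genes, the 3 highest and 2 lowest per kb and the 3 smallest p for genotype in each cluster, the 2 smallest p in each other contrast, and members with a mouse standing apart. From other lists the smallest p was named. Members and lists were chosen with earlier results of these data known.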

Additional observations from a re-analysis of the deposited data

Results flagged for a closer look

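In 6 of 120 checks of a member or cluster sum within a genotype, a mouse stood apart from the other 7 by a gap of more than 0.526 of the group's range; chance flags about 1 in 20. All 6 were single members. J/J male mouse 8 had 4.65 CPM of Pcdha6 with the next highest at 2.81 CPM, and 2.89 CPM of Pcdha7 with the next at 1.96 CPM. J/J female mouse 16 had 2.95 CPM of Pcdha12 with the next lowest at 3.94 CPM, and 2.85 CPM of Pcdhb4 with the next highest at 2.12 CPM. N/N female mouse 2 had 1.18 CPM of Pcdha8, against 0.677 CPM in the next highest. J/J male mouse 15 had 9.08 CPM of Pcdhb13, against 7.54 CPM in the next highest. No member had the genotypes apart in opposite directions in females and males.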

How the results depend on the processing

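Under 15 alternatives and 16 fits that each left out a mouse, 0 members passed an adjusted p of 0.05 for genotype, and the same count of 0 held for the other contrasts under RLE factors, limma-voom and each left-out mouse. The count of members at an unadjusted p under 0.05 for genotype was 3, 4 and 4 with run L001_1, L001_2 or L002_2 alone, each with fewer reads, in place of 7. Leaving out each mouse in turn gave 2 to 6 members within females, 1 to 8 within males, 1 to 7 for the interaction and 3 to 12 between the sexes. The cluster sum differences moved by less than 1 SD between mice under all alternatives run. That margin is wider than the differences themselves, so even a change of sign could pass it. With each mouse left out they ranged over -0.154 to -0.049 for alpha, -0.046 to 0.011 for beta, where the sign changed, and 0.065 to 0.154 for gamma. Without the 3 highest members of each cluster, r of the beta and gamma sums was 0.624 (adjusted permutation p 0.03). On leaving out each mouse it ranged over 0.447 to 0.727 for beta and gamma, 0.200 to 0.745 for alpha and beta, 0.211 to 0.564 for alpha and gamma, -0.859 to -0.642 for alpha and microglia and -0.777 to -0.467 for alpha and astrocytes. With all exons as length, the mean level was 0.594 for alpha and 3.20 CPM per kb for gamma members. The leave-out fits of the relations and the window-based length were chosen after seeing the data. The causes of these changes were not tested.

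For some named members, none of which had passed the adjusted test, the genotype difference (log2, N/N over J/J) changed sign. With the cortical score in the model, it was 0.011 for Pcdha12, -0.140 for Pcdha8, -0.329 for Pcdhb1, -0.105 for Pcdhb13, -0.068 for Pcdhb16, -0.032 for Pcdhga6, -0.088 for Pcdhgb4, -0.087 for Pcdhgb8, 0.033 for Pcdhgc4. Without mice 10 and 11, which shared a cage, it was 0.007 for Pcdha12. With run L002_2 alone, it was 0.133 for Pcdha12, 0.025 for Pcdhb15, 0.047 for Pcdhb8, -0.015 for Pcdhga6, 0.133 for Pcdhgc4. With run L003_2 alone, it was 0.047 for Pcdha5, -0.127 for Pcdhb13, -0.006 for Pcdhgb4. With the oligodendrocyte score, it was -0.175 for Pcdhb1, -0.056 for Pcdhb16, -0.029 for Pcdhga6, -0.063 for Pcdhgb4, 0.034 for Pcdhgc4. With limma-voom, it was -0.026 for Pcdhb1. With run L001_2 alone, it was -0.009 for Pcdhb16, 0.021 for Pcdhb20, 0.003 for Pcdhb4, 0.036 for Pcdhb8, -0.139 for Pcdhb9, -0.028 for Pcdhga6. With run L001_1 alone, it was 0.040 for Pcdhb17, -0.068 for Pcdhgb4, -0.211 for Pcdhgb8. Leaving out each mouse in turn, it ranged from -0.098 to 0.036 for Pcdha12, from -0.164 to 0.022 for Pcdha6, from -0.193 to 0.184 for Pcdha8, from -0.014 to 0.228 for Pcdhb1, from -0.055 to 0.118 for Pcdhb13, from -0.027 to 0.074 for Pcdhb16. It ranged from -0.035 to 0.029 for Pcdhb17, from -0.015 to 0.082 for Pcdhga6, from -0.018 to 0.129 for Pcdhgb4, from -0.024 to 0.081 for Pcdhgb8, from -0.082 to 0.022 for Pcdhgc4, from -0.004 to 0.139 for Pcdhgc5. No paired analysis was possible because the mouse numbers are not shared between genotypes.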

Other observations

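Split by sex, the gamma sum was 345 ± 61.8 CPM in N/N females and 323 ± 30.9 CPM in J/J females (SD, n = 5 each), and 345 ± 26.4 CPM in N/N males and 311 ± 26.9 CPM in J/J males (SD, n = 3 each). The 7 gamma B genes together had 42.8, 44.3 and 45.0 CPM in N/N males and 33.3, 33.6 and 39.7 CPM in J/J males. In females the gamma B sum spanned 29.9 to 49.9 CPM in N/N and 32.1 to 44.9 CPM in J/J mice, with mouse 13 lowest and mouse 2 highest. The beta sum was 151 ± 14.8 CPM in N/N females and 160 ± 10.3 CPM in J/J females, and 152 ± 6.66 CPM in N/N males and 144 ± 7.92 CPM in J/J males. These sums were not tested.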
